A study of Phyllostachys violascens with 6 samples.

Results

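The 100 unigenes described here were higher in yellow culm than in green sulcus in every pair of libraries. They are unigenes of *Phyllostachys violascens* cv. Viridisulcata, an ornamental bamboo. They were chosen by a ranking rule from the 63776 unigenes of a de novo assembly. A unigene is a group of assembled transcripts that the authors treated as 1 gene, and it carries a cluster name in place of a gene symbol. Levels are given as CPM, the count of a unigene per 1000000 counts of its library. A unigene entered the ranking when its mean over the culm libraries was 1 CPM or more and its highest culm value was at most 3 times its lowest, which 23645 unigenes met. Each was scored by the smallest of its 3 log2 ratios of (CPM + 0.5), culm 1 over sulcus 1, culm 2 over sulcus 2 and culm 3 over sulcus 3. The 100 highest scores were taken, after Cluster-4806.42073 was set aside. The differences between culm and sulcus given below therefore describe how the members were chosen, and no test of them is offered.

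RNA was sequenced from yellow culm (3 libraries) and from green sulcus (3 libraries) of wild-type plants of this cultivar, both taken at the longest internodes. The culm is the jointed bamboo stem, and the sulcus is the groove along an internode. Total counts per library lay between 18875469 and 22505338 in the culm and between 16405396 and 19434666 in the sulcus. The study compared the tissues to ask which transcripts accompany the colour of the internode. Each library is a bulk sample, so fewer cells of a type and less RNA per cell cannot be told apart. No sequence of the members was used here, and they are named by cluster.

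Green stem tissue owes its colour to chlorophyll bound in the antenna and reaction centre proteins of the chloroplast. Plants protect these proteins from excess light with one-helix relatives of the antenna and with the xanthophyll cycle, in which violaxanthin is turned into zeaxanthin. Chloroplasts also hold their own RNA, which is processed by proteins coded in the nucleus, and receptor-like kinases carry signals from the cell surface and wall into the cell. Unigenes of these groups stood among the 100, and their values are given by role after the overall levels.

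The members were mostly of low abundance. Their mean culm level lay between 1.08 and 188 CPM with a median of 7.0 CPM, and their mean sulcus level between 0.0695 and 117 CPM with a median of 3.04 CPM. Among all ranked unigenes the medians were 11.5 CPM in the culm and 11.4 CPM in the sulcus. A mean culm level under 5 CPM was found for 43 members, 5 to 20 CPM for 36 members and 20 CPM or more for 21 members. The ranked unigenes fell into these classes at 31.6%, 31.1% and 37.3%, so the least abundant class took a larger share of the members. The smallest count of any member in a culm library was 15, and 20 members had fewer than 10 counts in at least 1 sulcus library.

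Summed over the 100 members, the level was 2105 CPM in culm 1, 1415 CPM in culm 2 and 1927 CPM in culm 3, against 931 CPM in sulcus 1, 878 CPM in sulcus 2 and 1014 CPM in sulcus 3. The ratio of mean CPM, culm over sulcus, ran between 1.46 and 27.4 with a median of 1.97. All 3 culm libraries lay above all 3 sulcus libraries for 71 members, while the groups overlapped for 29 members. Of all ranked unigenes 2.90% separated in this way, and since the rule used these values nothing is read from the difference.

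**Figure D1:**
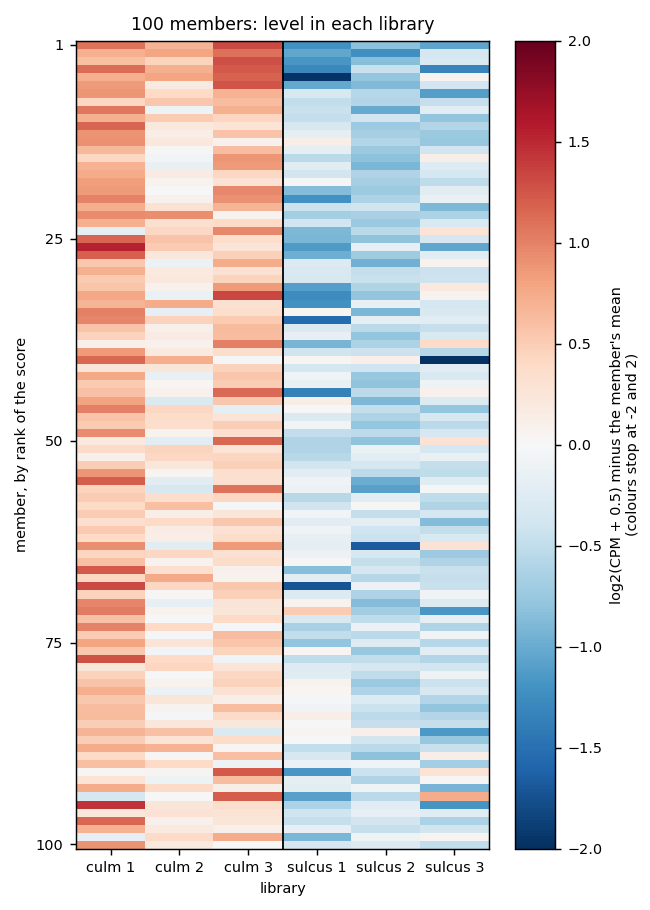
Level of each of the 100 members (rows, by rank of the score) in the 3 culm and 3 sulcus libraries (columns), as log2(CPM + 0.5) minus the member's own mean over the 6 libraries; red is above and blue below that mean. Red lies mostly on the culm side, and culm 1 was the highest culm library for 63 of the 100 members.

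The 3 pairs did not contribute alike. Culm 1 was the highest of the culm libraries for 63 members, culm 3 for 31 and culm 2 for 6. The median log2 ratio of the members was 0.93 in pair 1, 0.68 in pair 2 and 0.78 in pair 3, beside 0.02, -0.03 and 0.06 for all ranked unigenes. Pair 2 gave the smallest ratio, and with it the score, for 53 members, pair 3 for 31 and pair 1 for 16. Pair 1 gave the largest ratio for 52 members and for 36.0% of the ranked unigenes. Among the ranked unigenes the largest ratio fell most often in pair 3, at 40.6%. Shares of the ranked unigenes by highest culm library or by smallest ratio were not computed. These values rest on column totals. The scaling factors of edgeR (TMM) were 0.949 for culm 2 and 1.05 for culm 3, and 1.01 for both sulcus 2 and sulcus 3. Scaling by them would raise culm 2 and lower culm 3, and the order of pairs 2 and 3 under it was not tested.

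**Figure D2:**
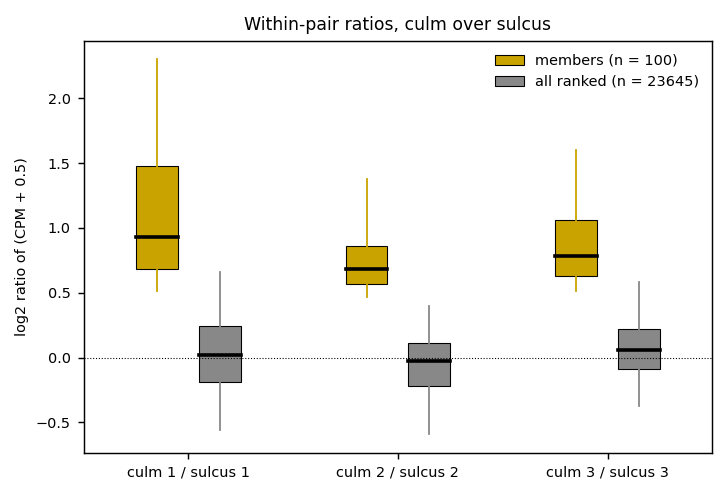
Log2 ratio of (CPM + 0.5), culm over sulcus, in each of the 3 same-numbered pairs for the 100 members (yellow) and the 23645 ranked unigenes (grey). Boxes span the 25th to 75th percentile with a line at the median, and whiskers span the 5th to 95th percentile; the members' medians are 0.93, 0.68 and 0.78, and those of the ranked unigenes lie within 0.06 of 0.

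The ranking was also made with 2 pairs and read in the pair it had not used, which is a measure the choice did not touch. Of the 100 highest unigenes chosen without pair 1, 87 were higher in culm 1 than in sulcus 1, with a median log2 ratio of 0.83, while 52.3% of the ranked unigenes were higher there. Chosen without pair 2, 80 were higher in culm 2, with a median of 0.38, against 43.4% of the ranked unigenes. Chosen without pair 3, 73 were higher in culm 3 and 26 lower, with a median of 0.30, against 59.6% of the ranked unigenes. In each list most unigenes were thus higher in the culm of the unused pair. Their median ratio was smaller in pairs 2 and 3 than in pair 1. Each reading rests on a single pair of libraries and describes a re-ranked list, not the 100 members. A ratio of 2-fold or more in the unused pair was found for 40, 9 and 15 of the 100, beside 2.24%, 0.233% and 0.688% of the ranked unigenes. These rankings shared 53, 34 and 30 unigenes with the 100 members, and unigenes within a library are not independent of each other.

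The scores fell quickly from the top of the ranking and then lay close together. The highest was 1.503, a ratio of 2.83 on the (CPM + 0.5) scale, the tenth was 0.90 and the hundredth was 0.466, a ratio of 1.38. Only 6 members were at least 2-fold higher in every pair on this scale. The last 3 inside were Cluster-8479.0, Cluster-4806.301 and Cluster-4806.14205, with scores of 0.469, 0.467 and 0.466. The first 3 outside were Cluster-4806.18229, Cluster-10264.0 and Cluster-4806.4283, with scores of 0.466, 0.462 and 0.462. Cluster-4806.14205 had 7.36, 4.31 and 3.69 CPM in the culm, against 2.83, 2.98 and 2.49 CPM in the sulcus. Cluster-4806.18229, just outside, had 5.30, 5.17 and 7.69 CPM in the culm, against 3.47, 3.60 and 3.84 CPM in the sulcus. Unigenes on either side of the boundary were thus alike, and none of these 6 had a description.

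The same rule turned to the sulcus ranked 24033 unigenes. Its highest score was 3.35 and its hundredth 0.425, and 19 unigenes were at least 2-fold higher in the sulcus in every pair. The culm direction held fewer large scores than the sulcus direction at the top of the list and higher scores at the hundredth rank. A score of 0.466 or more was reached by 68 unigenes in the sulcus direction. In all, 4012 ranked unigenes (17.0%) favoured the culm in every pair, and 3426 (14.3%) of those ranked in the other direction favoured the sulcus in every pair.

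**Figure D3:**
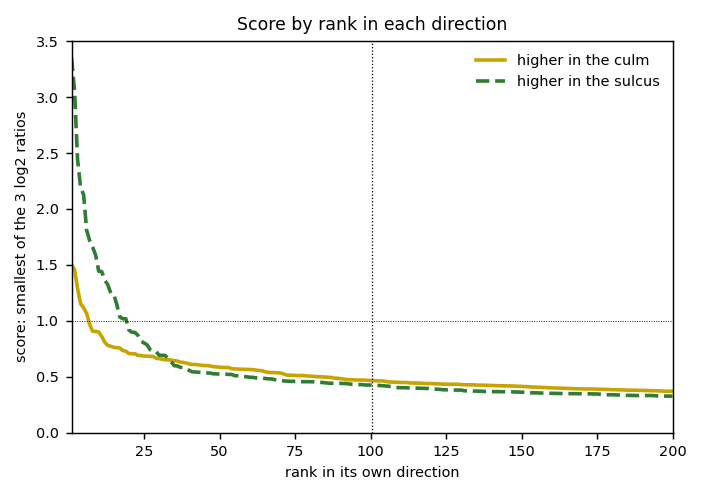
Score (the smallest of the 3 log2 ratios) against rank for the culm direction (yellow, solid) and the sulcus direction (green, dashed), ranks 1 to 200. The vertical line marks the boundary after rank 100, where the culm score is 0.466 and the sulcus score 0.425, and the horizontal line marks a score of 1.

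Protein descriptions came from the study's annotation of 424 unigenes it had called changed between these same libraries. It held 45 of the 100 members, and 34 of these had a protein match. That selection used the same contrast, so having a description is tied to the size of the difference. The ratio of mean CPM was between 2.0 and 27.4 for the 45 members in the annotation and between 1.46 and 2.33 for the 55 outside it. All of the first 12 members were in the annotation, and the first outside it had rank 13. Of the other unigenes no role is known here, and the roles below cover less of the list than its length. Leaving out Cluster-4806.42073, the annotation holds 423 unigenes, of which 234 were higher and 150 lower in the culm in every pair. The counts of lists given below stand beside that majority, and nothing is called particular to a list. A description names the closest match in a database, mostly from rice or Arabidopsis, and the roles are those known for that match.

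Chloroplast proteins came to 8 members, counted by a closest Swiss-Prot match that carries the word chloroplastic. The annotation holds 31 such unigenes, of which 13 were higher and 16 lower in the culm in every pair, so the members are the side of a divided class that the rule picks. Cluster-4806.7367 matched the high-light-induced protein, a small one-helix relative of the light-harvesting antenna that Arabidopsis makes in strong light. It had 57.5, 25.4 and 44.9 CPM in the culm, against 19.99, 13.3 and 23.4 CPM in the sulcus. The groups did not overlap, and the mean was 2.25 times as high in the culm. Cluster-4806.8603 matched violaxanthin de-epoxidase of moso bamboo, the enzyme of the xanthophyll cycle that makes zeaxanthin. It had 18.4, 9.63 and 17.4 CPM in the culm, against 3.60, 5.71 and 8.05 CPM in the sulcus, a ratio of means of 2.62. The closest values were those of culm 2 and sulcus 3. Cluster-12570.0 matched a heme-binding-like protein of the chloroplast, and had 14.0, 7.58 and 15.2 CPM in the culm, against 3.90, 4.37 and 6.43 CPM in the sulcus.

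The photosynthesis unigenes of the same annotation were read as a list and set beside the tissue labels. By name, 23 photosynthesis and plastid unigenes were drawn from the annotation. Photosynthesis unigenes that the study did not call changed are missing from the list, so it does not give the level of the whole class. Of these 23, 20 were lower in the culm in 3 of 3 pairs and 2 were higher in 3 of 3 pairs, and those 2 were the high-light-induced protein and violaxanthin de-epoxidase. The list summed to 1134, 1435 and 2482 CPM in the culm, against 6042, 5110.3 and 3121 CPM in the sulcus. Every culm sum lay below every sulcus sum, with the nearest values in culm 3 and sulcus 3. Its median log2 fold change was -2.02, beside 0.006 for all unigenes tested. When replicate number was added to edgeR as a block, 10 of the 22 that were tested were called lower in the culm. The high-light-induced protein was the 1 called higher. Over all 31936 unigenes tested, this fit called 19 lower and 22 higher. The study chose these unigenes on these libraries, so the list is no independent evidence of its direction.

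Other chloroplast members act in RNA handling and in the shikimate branch. Cluster-4806.522 matched a 33 kDa ribonucleoprotein, an RNA-recognition protein that binds plastid messages. It had 12, 8.43 and 10.4 CPM in the culm, against 4.88, 4.06 and 2.65 CPM in the sulcus, a ratio of 2.66 with no overlap. Cluster-4806.32032 matched a pentatricopeptide repeat protein, of the family that processes organelle RNA, and had 7.47, 4.82 and 5.82 CPM in the culm, against 3.17, 2.62 and 3.24 CPM in the sulcus. Cluster-6765.0 matched isochorismate synthase 2, which turns chorismate into isochorismate, the precursor of phylloquinone and, in Arabidopsis, of most salicylic acid. It had 11, 6.32 and 8.75 CPM in the culm, against 4.94, 3.40 and 3.19 CPM in the sulcus. Culm 1 was the highest library for all of these. Cluster-7872.0 matched an uncharacterized chloroplast methyltransferase, with 6.09, 4.16 and 9.20 CPM in the culm, against 1.22, 2.57 and 4.16 CPM in the sulcus, so that culm 2 and sulcus 3 were level to within rounding.

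Protein kinases came to 7 members, out of the 12 kinases in the annotation. Cluster-4806.16688, rank 5, matched the receptor-like kinase SD1-8, which carries an extracellular S-locus lectin domain. It had 29.0, 30.5 and 40.03 CPM in the culm, against 4.14, 9.98 and 18.2 CPM in the sulcus, a ratio of 3.08. Its sulcus libraries spread more than its culm libraries, and its edgeR log2 fold change on tissue alone, 1.62, was 2.22 without sulcus 3. Cluster-4806.10768 had the same closest match at a far lower level, 2.65, 1.20 and 0.933 CPM in the culm, against 0.244, 0.566 and 0.486 CPM in the sulcus.

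Wall-associated kinases, which span the plasma membrane and bind pectin in the cell wall, gave a pair of members with adjoining cluster numbers. Cluster-4806.9084, closest to wall-associated receptor kinase 5, had 42.4, 21.3 and 25.5 CPM in the culm, against 9.02, 10.9 and 15.7 CPM in the sulcus. Cluster-4806.9083, closest to wall-associated receptor kinase 2, had 22.3, 11.9 and 8.44 CPM in the culm, against 6.10, 6.23 and 5.78 CPM in the sulcus. Both were highest in culm 1, with ratios of means of 2.51 and 2.35. Whether they are separate genes or pieces of the same locus is not known from the assembly.

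The remaining kinases were near the lower limit of abundance. Cluster-10387.1 matched PXL2, a leucine-rich repeat receptor kinase, and had 1.17, 1.40 and 1.20 CPM in the culm, against 0.671, 0.617 and 0.594 CPM in the sulcus. Cluster-8343.2 matched BAM2, a relative of the CLAVATA1 receptor of the shoot meristem, and had 3.44, 1.40 and 1.60 CPM in the culm, against 0.792, 0.875 and 0.648 CPM in the sulcus. Cluster-6826.0 matched cyclin-dependent kinase F-2 of rice and had 1.70, 2.31 and 1.24 CPM in the culm, against 0.914, 0.617 and 0.702 CPM in the sulcus. None of the 3 overlapped between tissues. Of all 12 kinases in the annotation 10 were higher in culm in 3 of 3 pairs and 1 lower, beside 234 higher and 150 lower of the 423 in the annotation. Their median log2 fold change was 1.40, and edgeR called none of the 8 that were tested, with or without the replicate block.

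Among the transporters, Cluster-4806.13129 ranked sixth and matched organic cation/carnitine transporter 7, a member of the major facilitator superfamily. It had 23.3, 14.5 and 31.0 CPM in the culm, against 6.03, 6.69 and 9.67 CPM in the sulcus, a ratio of 3.07, and the lowest culm library lay well above the highest sulcus library. Cluster-4806.32140 matched a sugar carrier, which takes up monosaccharides with protons, and had 1.48, 1.10 and 1.38 CPM in the culm, against 0.610, 0.515 and 0.540 CPM in the sulcus. Its libraries were close together within each tissue, but at only 28, 22 and 31 counts in the culm and 10, 10 and 10 in the sulcus. Cluster-4806.2511 matched a MATE efflux protein, of the family that exports toxins and secondary metabolites, and had 7.95, 2.66 and 4.09 CPM in the culm, against 2.99, 1.34 and 2.59 CPM in the sulcus, so that culm 2 lay below sulcus 1. Of the 11 transporters in the annotation 9 were higher in culm in 3 of 3 pairs and 1 lower, beside the same 234 and 150 of 423. The edgeR fit with the block called 1 higher, the cation/carnitine transporter, as DESeq2 did without it. Over all unigenes these fits called 22 of 31936 and 7 of 32487 higher.

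The most abundant member was an enzyme of glucoside breakdown. Cluster-4806.23613 matched beta-glucosidase 27 of rice, a family 1 glycosyl hydrolase that releases glucose from glucosides. It had 296, 128 and 139 CPM in the culm, against 70.0, 92.4 and 47.8 CPM in the sulcus, a ratio of 2.68 that rested most on culm 1. Its score was low, at rank 95, because pair 2 differed least. Cluster-4806.17548 matched achilleol B synthase of rice, an oxidosqualene cyclase that makes a triterpene. It had 29.2, 20.1 and 21.1 CPM in the culm, against 4.69, 12.7 and 12.3 CPM in the sulcus, where sulcus 1 was the lowest by a wide margin. It was the only member of 4 triterpene synthesis unigenes in the annotation, all of which were higher in the culm in 3 of 3 pairs, beside 234 of 423 in the annotation.

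Further enzymes act on sugar phosphates, on a lipid precursor and as a reductase and a methyltransferase. Cluster-4806.28470 matched mannose-6-phosphate isomerase 1, an entry step to mannose sugars and to ascorbate, and had 15.1, 9.83 and 7.20 CPM in the culm, against 4.51, 6.74 and 4.70 CPM in the sulcus. Cluster-4806.27469 matched a chloroplast glycerol-3-phosphate dehydrogenase, which supplies the backbone of glycerolipids, and had 3.92, 3.41 and 3.82 CPM in the culm, against 2.44, 1.29 and 1.62 CPM in the sulcus. The culm libraries were the more even of the 2 tissues for this enzyme. Cluster-4806.6533 matched a short-chain dehydrogenase/reductase, family member 12, and had 41.0, 28.1 and 34.6 CPM in the culm, against 13.4, 19.6 and 15.7 CPM in the sulcus. Cluster-5247.1, a methyltransferase that uses S-adenosylmethionine, had 8.21, 4.16 and 12.4 CPM in the culm, against 1.65, 2.47 and 4.86 CPM in the sulcus, where culm 2 lay below sulcus 3.

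Members with a role in transcription, protein synthesis and protein folding were few and of low abundance. Cluster-4806.2212 matched WRKY53, a transcription factor that in Arabidopsis acts in leaf senescence, and had 1.80, 1.76 and 0.755 CPM in the culm, against 0.244, 0.257 and 0.270 CPM in the sulcus. It was the only member among 10 WRKY unigenes of the annotation. With 86 counts in all culm libraries and 14 in all sulcus libraries, the ratio of pooled CPM was 5.44 (95% exact interval 3.08 to 10.4). Intervals of this kind cover counting error only, and neither the spread between libraries nor the choice of members by these same counts. Reads without molecular identifiers are also not independent molecules.

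Cluster-4806.13837 matched ribosomal protein S15 of the small cytosolic subunit and had 3.66, 2.26 and 1.87 CPM in the culm, against 0.488, 0.566 and 0.973 CPM in the sulcus. Cluster-4806.40287 matched the alpha subunit of T-complex protein 1, a chaperonin that folds actin and tubulin, and had 3.39, 3.56 and 2.49 CPM in the culm, against 0.549, 1.70 and 1.40 CPM in the sulcus. Both separated the tissues in all libraries. Cluster-4806.2780 matched a TIM14-type subunit of the mitochondrial import motor and had 5.67, 3.60 and 2.22 CPM in the culm, against 2.56, 1.70 and 1.30 CPM in the sulcus. Cluster-4491.0 matched a tRNA guanine dimethyltransferase and had 2.70, 1.20 and 2.27 CPM in the culm, against 1.28, 0.617 and 1.03 CPM in the sulcus. In these last members the lowest culm library lay below the highest sulcus library. Cluster-4806.5250 matched a phosphatase 7 long form homolog, whose role in bamboo is not known, and had 9.96, 9.63 and 5.95 CPM in the culm, against 3.96, 3.81 and 4.11 CPM in the sulcus.

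Transposon-like matches came to 2 members out of 11 in the annotation. Cluster-4806.41920 matched a rice retrotransposon protein and had 1.91, 0.752 and 0.800 CPM in the culm, against 0.366, 0.154 and 0.216 CPM in the sulcus. Cluster-7133.0 matched the Pol polyprotein of a copia-type element of tobacco and had 1.17, 1.0 and 1.07 CPM in the culm, against 0.305, 0.515 and 0.324 CPM in the sulcus. Reads of repeated elements can be split between copies, so these levels are uncertain. Over the 11 transposon-like unigenes 4 favoured the culm in every pair and 7 the sulcus, with a median log2 fold change of -0.04, so these members do not stand for the class.

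**Figure D4:**
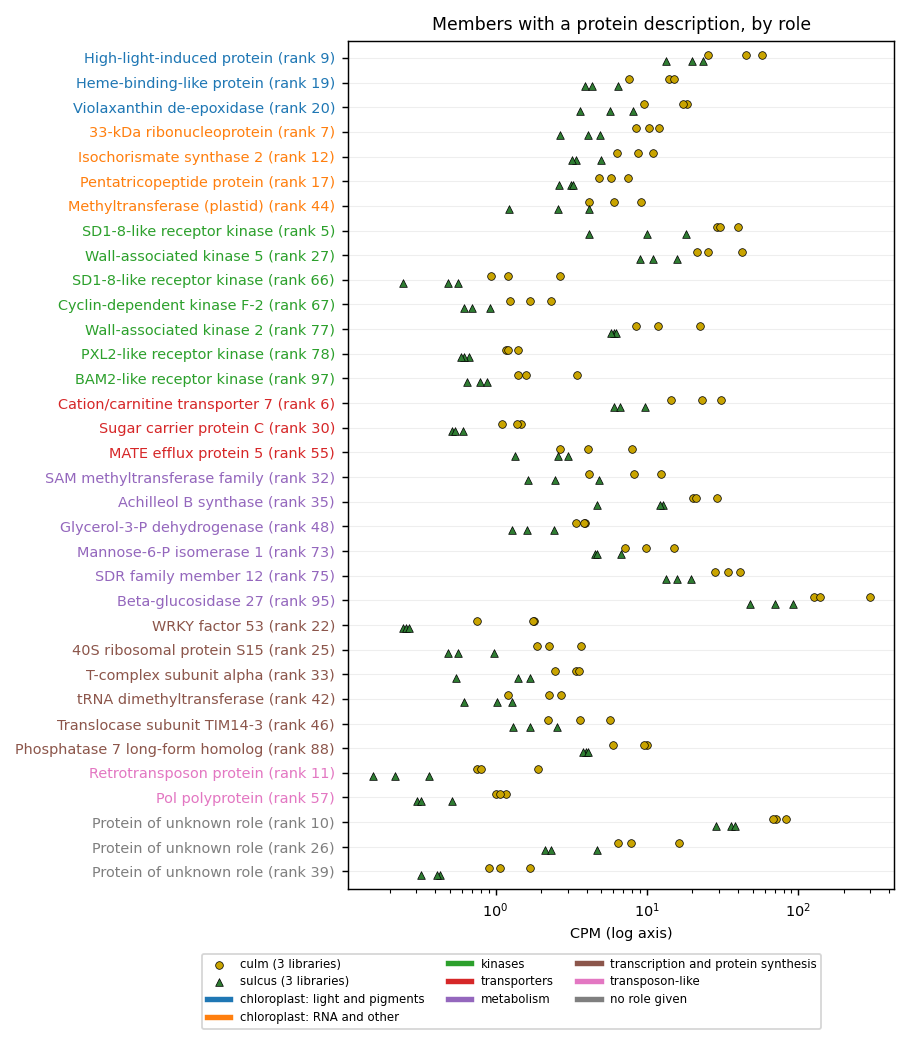
CPM on a log axis in the 3 culm libraries (circles) and the 3 sulcus libraries (triangles) for the 34 members with a protein description, grouped by role through the colour of the label. Levels reach from under 1 CPM for the retrotransposon protein in both tissues to 296 CPM for beta-glucosidase 27 in culm 1.

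The highest scores belonged to unigenes with no protein match. Cluster-4806.2229, rank 1, had 1.96, 1.35 and 2.40 CPM in the culm, against 0, 0.154 and 0.0540 CPM in the sulcus. It was close to undetected in the sulcus, where 4 counts were found in all libraries together, against 118 in the culm, and the ratio of pooled CPM was 26.1 (95% exact interval 9.95 to 97.6). Cluster-4806.44952, rank 2, had 2.01, 2.16 and 2.8 CPM in the culm, against 0.244, 0.154 and 0.702 CPM in the sulcus, with a pooled ratio of 6.38 (3.98 to 10.8). Cluster-4806.44110, rank 3, had 4.08, 3.61 and 6.89 CPM in the culm, against 0.853, 1.18 and 1.95 CPM in the sulcus. Cluster-4806.43786, rank 4, had 2.49, 1.76 and 2.71 CPM in the culm, against 0.0610, 0.515 and 0.0540 CPM in the sulcus. The intervals cover counting error only, for unigenes ranked highest by these same counts, and are no test of the difference. Low counts also let single sulcus libraries weigh on the fitted values. In fits of tissue alone, the edgeR log2 fold change of rank 1 was 4.59 over all libraries and 5.76 without sulcus 2. That of rank 2 was 2.64 and 3.51 without sulcus 3, and that of rank 4 was 3.38 and 5.17 without sulcus 2. Ranks 3 and 4 matched cDNA clones of moso bamboo that carry no protein name, and in all 4 the tissues were separated by a clear gap.

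Cluster-4806.41099, rank 8, had 1.01, 1.15 and 1.24 CPM in the culm, against 0.305, 0.257 and 0.324 CPM in the sulcus. These were 19, 23 and 28 counts against 5, 5 and 6, too few for the small spread to be read as even expression. Cluster-4806.16499, rank 10, matched the rice locus Os01g0965900, for which no role is given, and was the most abundant of the first 10. It had 82.7, 71.4 and 67.8 CPM in the culm, against 35.8, 38.1 and 28.7 CPM in the sulcus, with a ratio of 2.16 and a wide gap between the tissues. Its numerical neighbour Cluster-4806.16497, with no description, had 144, 98.4 and 144 CPM in the culm, against 89.8, 69.5 and 54.2 CPM in the sulcus. Counts of both were not all whole numbers, so their values are estimates. The other members with a protein match and no role, Cluster-4806.42258 and Cluster-15064.0, had culm values between 0.903 and 16.4 CPM and sulcus values between 0.324 and 4.68 CPM.

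The 55 members outside the annotation had mean culm levels between 1.36 and 171 CPM with a median of 11.5 CPM. Cluster-4806.20825 was the most abundant of them, with 98.9, 125 and 289 CPM in the culm, against 58.1, 85.9 and 208 CPM in the sulcus. Its libraries differed more between replicate numbers than between tissues, and culm 1 and culm 2 lay below sulcus 3. Its edgeR log2 fold change, fitted on tissue alone, was 0.53 over all libraries, -0.03 without culm 3 and 1.22 without sulcus 3. Leaving out a library in this way keeps its same-numbered partner in the fit. With the replicate block the fold change was 0.59, and the log2 ratios in pairs 1, 2 and 3 were 0.76, 0.54 and 0.47. Cluster-4806.16497, given above, was the next most abundant in the culm among these.

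The members were also described by their place in the assembly and by their counts. Of the 100, 75 lay in Cluster-4806, a very large cluster of the assembly, and 25 in 25 different other clusters, whereas 90.6% of the ranked unigenes lay in Cluster-4806. Counts that were not all whole numbers were found for 21 members, beside 46.7% of the ranked unigenes. Neither difference was tested, nor was the part that abundance has in them. A sulcus range of more than 3 times was found for 16 members and for 4.33% of the ranked unigenes. The values that follow come from the same CPM as the score, which sets members towards a large share between tissues, and are given as a description. Of the sum of squares of log2(CPM + 0.5), a median of 70.3% lay between tissues and 21.1% between replicate numbers for the members. For all ranked unigenes the medians were 6.24% between tissues and 71.0% between replicate numbers, so that replicate number was the larger division in the libraries as a whole.

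The fits across all unigenes used the same contrast as the rule, and their calls are given beside the members only as a description. A call required an adjusted p below 0.05 and a log2 fold change above 1. Tissue alone was fitted with the quasi-likelihood test of edgeR, which called 0 of 31936 unigenes higher in the culm (0%), and thus 0 of the 100 members, at a smallest adjusted p among them of 1.0. At an unadjusted p below 0.05, 272 unigenes (0.852%) were higher in the culm in this fit, and 74 members were among them. The log2 fold changes of the members ran between 0.53 and 4.59 with a median of 0.98, and 48 were above 1.

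When edgeR was given the block, 22 unigenes were called higher (0.0689%), and 6 of them were members. They were Cluster-4806.2229, Cluster-4806.44110, the cation/carnitine transporter, the 33 kDa ribonucleoprotein, the high-light-induced protein and Cluster-4806.16499. For Cluster-4806.16499 the blocked log2 fold change was 1.12 with an edgeR adjusted p of 0.00702, and for the transporter, Cluster-4806.13129, it was 1.58 with an edgeR adjusted p of 0.0123. DESeq2 with tissue alone called 7 unigenes higher (0.0215%) and 16 lower. The study names DESeq2 and the same thresholds for its 424 changed unigenes, and the reason for this difference was not tested. Of the 7 called higher here, 5 were members. They were Cluster-4806.2229, Cluster-4806.13129, Cluster-4806.16499, Cluster-4806.43786 and Cluster-4806.44952, and the first 3 of these were among the 6. DESeq2 with the block called 65 (0.215%), of which 19 were members and included all 6. Violaxanthin de-epoxidase, isochorismate synthase 2, both wall-associated kinases and the SD1-8-like kinase of rank 5 were among these 19.

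Matches to microbes in the annotation were counted as a check on RNA of other organisms. The 55 members outside the annotation carried no match of any kind, so the check does not cover them. None of the 8 unigenes with a microbial nucleotide match was a member, and 5 were lower in the culm in 3 of 3 pairs. They summed to 47.2, 16.6 and 97.1 CPM in the culm, against 69.1, 111 and 330.1 CPM in the sulcus. Their part in the members' values was not tested.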

How the data were processed

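Total RNA of yellow culm and green sulcus (3 biological replicates each) was sequenced by the authors as paired reads of 150 bp, assembled with Trinity and clustered into unigenes with Corset. They deposited 1 table of estimated counts per unigene, which were not whole numbers throughout; no source used here names the counting tool, and the submitters' processing notes list DESeq. Groups and colours follow the labels; 1 sentence of the study's text gives the colours the other way round. CPM was computed from column totals, and all 6 columns were used. Estimated counts were rounded for edgeR 4.0.16 (TMM factors, filterByExpr with a minimum count of 10, quasi-likelihood test, Benjamini-Hochberg adjustment) and DESeq2 1.42.0 in R 4.3.3, each checked on simulated data. Same-numbered libraries deviated together from their tissue means (correlations of 0.762, 0.684 and 0.831), so the numbers were taken to pair them. P-values of the fits on tissue alone measure the spread between these libraries. Those of the blocked fits measure the spread left after replicate number is fitted. The authors' own fold changes and p-values were not used. The members, and the lists by annotation, were chosen with earlier results of these data known. Unigenes were named by this rule: the 10 highest scores, members with a protein description, 3 on each side of the boundary, the 3 most abundant, and members of shared small clusters, of which there were none.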

Additional observations from a re-analysis of the deposited data

How the results depend on the processing

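The members' median log2 fold change, whose direction the choice of members fixes, lay between 0.87 and 1.07 with a library left out in turn. These edgeR refits had tissue alone and no block, and the same-numbered partner of the left-out library stayed in. The counts of calls stayed at 0 there for members and for all unigenes. They were already 0 with all 6 libraries, so this is no measure of stability. With other scaling factors (RLE), a minimum count of 30 (79 members tested) or no filter on low counts, edgeR still called 0 members and 0 unigenes higher. The replicate block raised the calls to 6 members and 22 unigenes with edgeR and to 19 members and 65 unigenes with DESeq2, which called 5 members and 7 unigenes without it. Of the fold changes of single named members, 1 turned in these refits. Cluster-4806.20825 was -0.03 without culm replicate 3, and between -0.03 and 1.22 over all libraries left out in turn. With the replicate block and no library left out, its edgeR log2 fold change was 0.59. The membership depended on the rule: 56 members were kept with no limit on the culm range, 54 with the mean of the 3 ratios in place of the smallest (score at rank 100 of 0.82), 50 when the lowest culm was set against the highest sulcus library (0.25), 53 without replicate 1 (0.60), 34 without replicate 2 (0.81) and 30 without replicate 3 (0.75). Pseudocounts of 0.1 and 2, a culm range limit of 2, a culm mean of 2 CPM and TMM-scaled CPM kept between 68 and 82 members. Depth limits the 20 members with under 10 counts in a sulcus library.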

Other observations

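The limit on the culm range set aside 76 unigenes that scored at or above the boundary, and the lower limit on culm abundance set aside 35. Several of the 76 that carried a description were far higher in culm 1 than in the other culm libraries. The unigenes that follow were picked after their values were seen, and not all of them had this pattern. Cluster-4806.42077, matched to a tonoplast dicarboxylate transporter, which moves malate into the vacuole, had 221, 86.4 and 22.5 CPM in the culm, against 31.0, 52.2 and 14.4 CPM in the sulcus. Cluster-4806.43905, matched to an aminocyclopropane carboxylate oxidase, which makes ethylene, had 43.5, 7.83 and 1.11 CPM in the culm, against 3.41, 2.42 and 0.540 CPM in the sulcus. In both the level in culm 3 was below that of 1 or more sulcus libraries.

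Others were matched to a glucanase, a chitinase and a heme-binding-like protein. Cluster-4806.2906, matched to a glucan endo-1,3-beta-glucosidase, had 34.7, 9.18 and 3.11 CPM in the culm, against 2.50, 3.60 and 1.30 CPM in the sulcus. Cluster-4806.3327, matched to chitinase 6 of rice, had 12.5, 9.13 and 1.47 CPM in the culm, against 2.32, 1.96 and 0.648 CPM in the sulcus. Each was higher in the culm in every pair while its culm libraries spanned a wide range. Cluster-4806.2492, a further match to the chloroplast heme-binding-like protein, had the highest score of those set aside, 1.29, with 21.3, 5.02 and 12.3 CPM in the culm, against 0.671, 1.75 and 2.43 CPM in the sulcus.

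Besides the microbial matches, several lists had no member among the 100. They were ethylene synthesis (2 unigenes), chitinases, glucanases and defence proteins (8), AP2/ERF factors (5) and jasmonate and oxylipin synthesis (6). The others were other DNA-binding factors (15), waxes and very-long-chain lipids (3), calcium signalling (4) and phenylpropanoid and glycosyltransferase (8). Part of this absence was set by the limit on the culm range. It set aside both ethylene unigenes, with scores of 0.63 and 0.52. The glucanase above and matches to chitinases 6 and 8 were set aside likewise, with scores of 1.01, 0.78 and 0.71. All of these scored above the 0.466 of rank 100. In the phenylpropanoid and glycosyltransferase list 4 unigenes were higher and 3 lower in the culm in every pair. The defence list summed to 105, 28.9 and 16.3 CPM in the culm, against 14.0, 11.6 and 9.67 CPM in the sulcus. Of its 8 unigenes 6 were higher in culm in every pair, beside 234 of 423 in the annotation. With the replicate block edgeR called 2 of the 5 that were tested higher, beside 22 of 31936 over all unigenes. The ethylene list summed to 72.6, 13.9 and 1.87 CPM in the culm, against 6.03, 3.34 and 0.918 CPM in the sulcus, with both unigenes higher in 3 of 3 pairs. These lists were drawn from unigenes the study had called changed on the same libraries.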
